A study of Homo sapiens with 6 samples.

Results

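The 46 genes described here encode proteins of homologous recombination and of the Fanconi anemia pathway, from BRCA1 and BRCA2 to FANCA and FANCM, together with the checkpoint and chromatin proteins that act around a broken chromosome. They were taken by name, and each ATAC-seq region was given to a gene by position. Promoter regions were those that reached within 2 kb of where a protein-coding transcript of the gene starts in GENCODE 44. A distal region was any other region whose midpoint lay within 100 kb of a start site, and it was given to the gene with the nearest one. By this rule 156 of the 108542 regions in the deposited table belonged to the 46 genes, 59 of them at promoters and 97 at distal sites. All 46 genes had a promoter region, 35 of them a single one, and 30 genes had a distal region. The nearest start site names a gene and does not show that the region regulates it.

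Homologous recombination copies the sequence of a sister chromatid to repair a broken chromosome, and is therefore used mainly while cells replicate their DNA. The ends of the break are first cut back to single strands, BRCA proteins then prepare them to pair with the intact copy, and helicases and nucleases separate the joined molecules afterwards. The Fanconi anemia pathway removes crosslinks between the strands of DNA, by marking the pair FANCD2 and FANCI with ubiquitin and handing the resulting break to recombination. Many of these genes are expressed in proliferating cells and are less active in cells that have left the cell cycle, as adult beta cells mostly have.

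The study used EndoC-βH3, a single line of human beta-like cells from fetal pancreas. It was immortalised with hTERT and SV40 Large T, and both are flanked by sites for a Cre recombinase that 4-hydroxytamoxifen (4-OHT) activates. The senescent group (3 libraries) came from cells treated with 4-OHT for 3 weeks, and the non-senescent group (3 libraries) from untreated control cells, with the genotype labelled WT and 100000 cells in each library. All cells stem from the same line, and the loss of the 2 transgenes, the drug and the senescent state cannot be told apart in this design.

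Values are those of the authors' deposited table, which holds 1 mean signal for each region over the 6 libraries, in normalised reads, and 1 log2 fold change with its standard error (SE). It holds no value for a single library, so that values by sample cannot be shown and library depths are unknown. The SE of the authors' fit to 3 against 3 libraries is the only measure of precision. The p-values set each fold change against that SE. Nothing in the labels says that the libraries came from separate cultures, so the SE may not cover the variation between cultures. The table does not state which group is the numerator. It was read as senescent over non-senescent, so that a negative log2 fold change stands for lower accessibility in senescent cells. The promoter of the proliferation marker MKI67 (-0.53 ± 0.10, SE) was considered in that choice, so the direction at genes of the cell cycle is not independent of it. CDKN1A encodes the cell-cycle inhibitor p21. The study reports its transcript, and the activating histone mark H3K27ac at its promoter, as higher in these senescent cells, and neither is accessibility. CDKN1A also had a lower promoter on this reading (-0.30 ± 0.08, adjusted p-value 0.0015), so these 2 markers do not settle the direction. On the same reading the INS promoter had 1.11 ± 0.04, the highest of 10 beta cell genes fixed as markers. The lowest of the 10 was ABCC8 at -0.47 ± 0.09. The study reports higher INS transcript levels in senescent cells, which is RNA and not accessibility. In such bulk libraries, fewer cells with an open site and less opening in each cell cannot be told apart. The label of the cells was checked against fixed markers. All 10 beta cell genes, with INS, PDX1 and MAFA among them, had a promoter region, with mean signals between 183.5 and 7894 and a median of 626.6. Of 10 markers of other cells 7 had one, with a median of 143.4, a lowest of 66.3 at GCG of alpha cells and a highest of 2101 at the acinar gene CPA1, while PRSS1, PDGFRB and PTPRC had none. The duct gene KRT19 had 1059, and the median of all genes was 840.4, above that of the beta cell genes. Promoter signal alone therefore does not settle the cell type.

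The letters that the promoters carry are shown first, for 2 sets of sequence to which the values below refer. E2F proteins switch genes of DNA replication on and off with the cell cycle, and their sites were sought as TTTCCCGC, TTTGGCGC, TTTCGCGC or TTTGCCGC on both strands, in the 250 bases before and 50 after the start of each gene in the promoter table of RefSeq (GRCh38.p14). Of the 46 genes, 40 matched that table by symbol, and NBN, WRN, RAD54B, DNA2, RMI2 and FANCI were not in it. Letters of this kind were found in 8 genes and not in the other 32, BRCA2 and PALB2 among them. The start in that table is not always the canonical one, and for BRCA1 it lay 44963 bp away, at the alternative start shared with NBR1, so that the sequence at the canonical start of BRCA1 was not searched. The 9 sites are given in 30 bases each, in the direction in which the motif begins with TTT, with the motif in capitals and in the order of the fold change at the promoter.
FANCC, chr9:95317737-95317766, minus strand: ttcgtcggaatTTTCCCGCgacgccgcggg
FANCC, chr9:95317863-95317892, plus strand: agtgttcccggTTTCGCGCggaagccccgg
FANCD2, chr3:10026424-10026453, minus strand: tagttttcgacTTTCCCGCcaggcccgacg
GEN1, chr2:17753859-17753888, plus strand: cagttgcggggTTTCGCGCcgccggagtct
EXO1, chr1:241848197-241848226, plus strand: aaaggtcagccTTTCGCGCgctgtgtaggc
TOPBP1, chr3:133661930-133661959, plus strand: cgggaaccgacTTTCGCGCcaaccgcgcgg
FANCA, chr16:89816801-89816830, plus strand: ttgcgtttggcTTTGCCGCcgcggtgtagt
XRCC2, chr7:152676102-152676131, plus strand: agagactcaacTTTCCCGCcaccaacgcca
MSH6, chr2:47783137-47783166, plus strand: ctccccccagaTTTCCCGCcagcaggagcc

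In 5 of these genes (FANCD2, GEN1, EXO1, TOPBP1 and MSH6) the middle of the site lay within 8 bp of the RefSeq start. For GEN1 that start lay 269 bp from the canonical one. It lay 25 bp downstream of the start in XRCC2, 168 bp upstream in FANCA, and 42 and 168 bp upstream in FANCC. The sites of 7 of the 8 genes lay inside the promoter region of highest signal of their gene, and that of XRCC2 lay in the region over its start, which was the weaker of its 2 promoter regions.

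The second set contrasts the promoter of FANCC, which was among the lowest, with that of XRCC3, which was 1 of 2 genes with a positive fold change in their strongest promoter region. Each stretch is 150 bases, ends 7 bases (FANCC) or 54 bases (XRCC3) before the start of the gene, overlaps no annotated exon and is read on the minus strand, and capitals mark E2F letters in FANCC and CCAAT letters (ATTGG on the other strand), the box bound by NF-Y, in XRCC3. The first lies at chr9:95317716-95317865 and the second at chr14:103715505-103715654 (GRCh38.p14).
FANCC: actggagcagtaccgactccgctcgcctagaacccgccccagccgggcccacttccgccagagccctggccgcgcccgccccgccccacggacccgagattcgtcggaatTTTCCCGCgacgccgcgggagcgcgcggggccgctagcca
XRCC3: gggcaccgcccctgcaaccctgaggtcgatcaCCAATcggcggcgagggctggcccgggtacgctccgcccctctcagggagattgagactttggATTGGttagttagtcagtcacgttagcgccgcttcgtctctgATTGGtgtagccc

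The first comparison asked how accessibility at the promoters of the repair genes changed upon senescence. It was lower in senescent cells at most of them, by a small amount. With the promoter region of highest mean signal standing for its gene, the log2 fold change was negative at 44 of the 46 genes (95.7%), and its median was -0.26, which compares with 74.4% of 15493 genes and a median of -0.14. At an adjusted p-value under 0.05 alone, 33 of the 46 genes (71.7%) were lower and 2 were higher, against 39.9% lower and 8.23% higher among all genes. Among the 11580 other genes with a mean signal in the range of the repair genes (370.9 to 3906), 41.6% were lower on the same reading. When a fold change over 1.5 was also asked for, which is the threshold used for calls below, 4 of the 46 genes (8.70%) were lower and none was higher. The background on that reading was 7.02% lower and 1.39% higher over all genes, so that the share called stayed near it, and 2.70% lower in the range of mean signal of the repair genes.

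**Figure D1:**
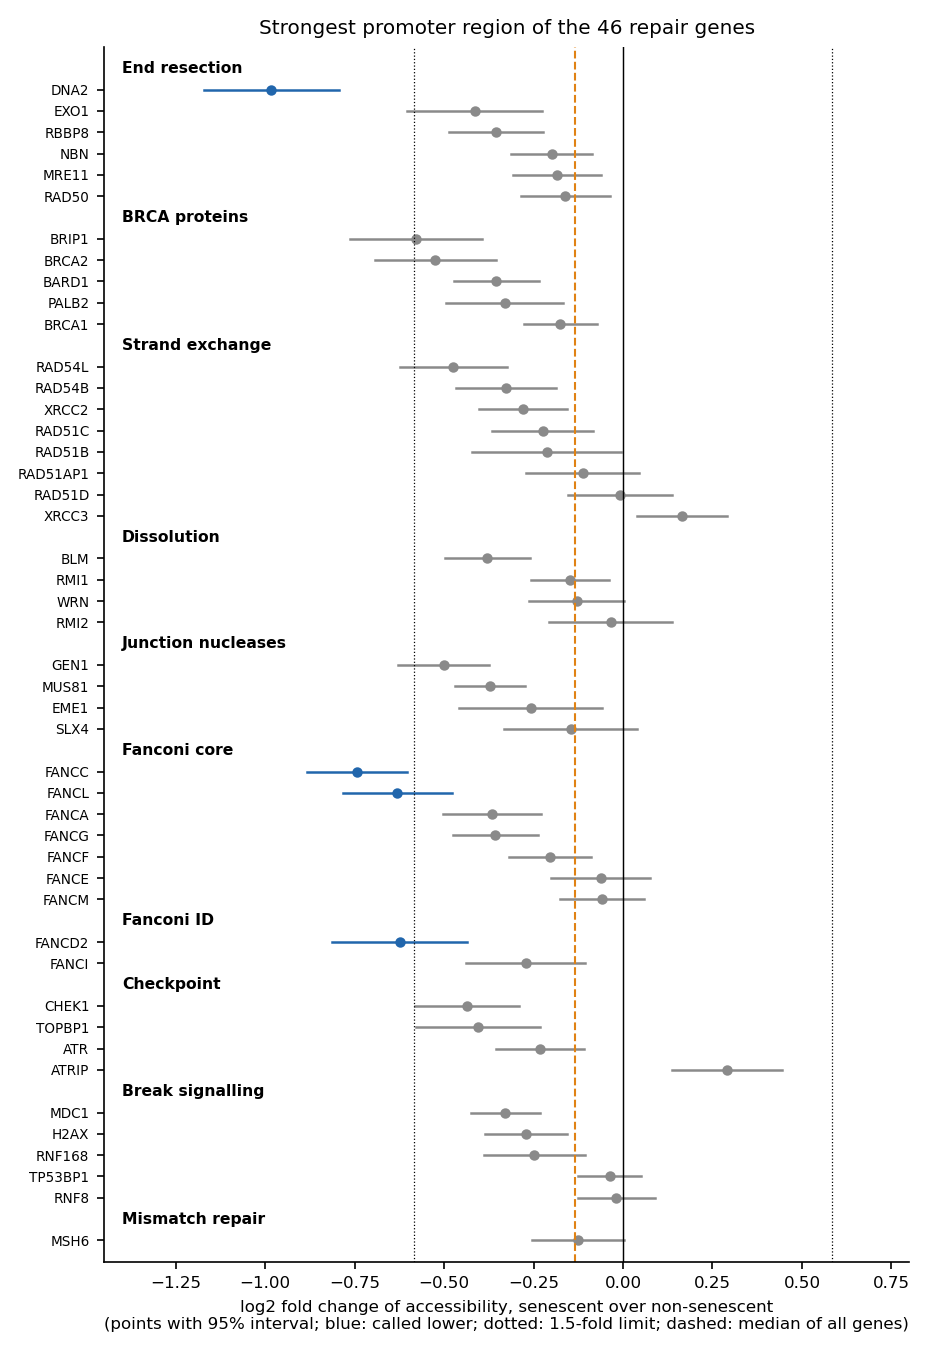
Log2 fold change of accessibility (x axis, senescent over non-senescent) of the strongest promoter region of each of the 46 genes, grouped by role, with bars for the 95% interval from the SE. The 4 blue points (DNA2, FANCC, FANCL and FANCD2) were called lower, ATRIP and XRCC3 lie to the right of 0, and most of the others lie between the 1.5-fold limit (dotted) and the median of all genes at -0.14 (dashed).

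The lower median of the repair genes did not go with a lower signal. Compared with the running median of promoter regions of like mean signal, 37 of the 46 genes (80.4%) lay below it, with a median difference of -0.14, while 53.1% of all genes lay below it, with a median difference of -0.01. The median mean signal of the repair genes was 1032, and that of all genes 840.4. The median GC content of the regions was 58.9% against 62.9%. The fold changes of the deposited table move with signal and GC content over all regions, and removal of these trends moved the median of all genes from -0.14 to -0.03 (mean signal), -0.02 (GC content) or 0.02 (both). The median of the repair genes moved to -0.15, -0.17 and -0.10 in turn, and so stayed below that of all genes by about the same distance.

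**Figure D2:**
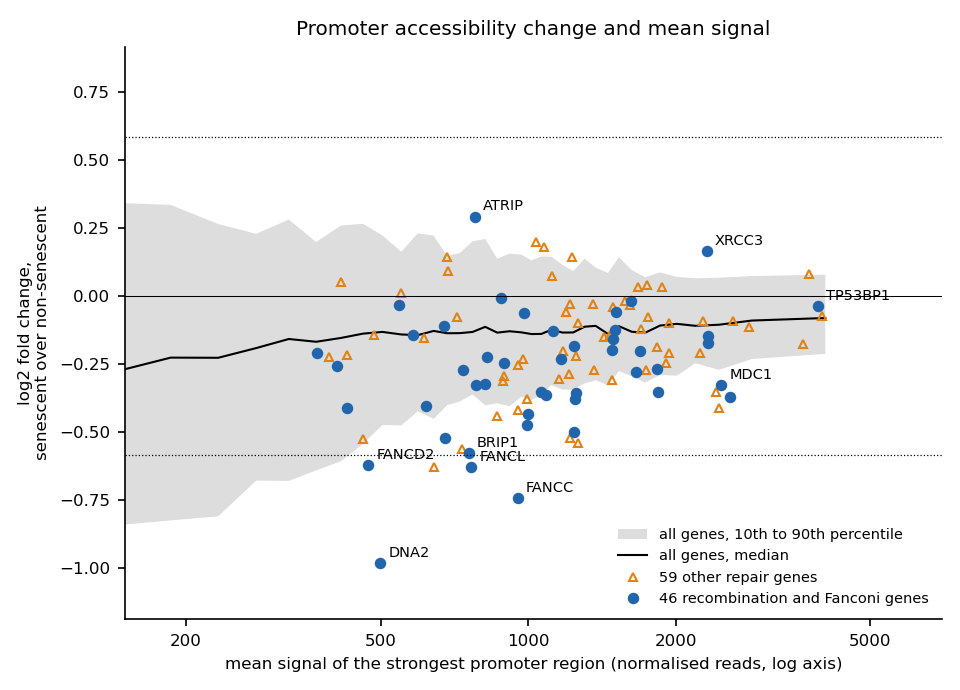
Log2 fold change of the strongest promoter region (y axis) against its mean signal in normalised reads (x axis, log scale) for the 46 genes (filled circles) and 59 other repair genes (triangles), over the median (line) and the 10th to 90th percentile (grey) of all genes. Most circles lie under the line, with TP53BP1 at the highest signal above it, and DNA2, FANCC, FANCL and FANCD2 lie under the dotted 1.5-fold limit.

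Among all 59 promoter regions of the repair genes, 8 (13.6%) were called lower and 1 (1.69%) higher, against a background of 9.04% lower and 3.56% higher over 20094 promoter regions. Their fold changes are given below by role. Since a gene often has a start site within reach of a neighbour, 18 of the 46 strongest regions (39.1%) were also a promoter region of another protein-coding gene and cannot be assigned to 1 of them, compared with 22.9% of all genes. The median log2 fold change was -0.18 for the shared regions and -0.34 for the other 28, and all 4 genes called lower were among the latter.

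The genes of end resection, which cut the strands back at a break, were lower at 6 of 6 promoters at an adjusted p-value under 0.05 alone. The share of all genes on that reading was 39.9%. DNA2, a nuclease and helicase, had the lowest promoter of the whole group. Its only promoter region (chr10:68471235-68472470, hg38, over the first exon) had a mean signal of 498.1 and a log2 fold change of -0.98 ± 0.10 (SE, n = 3 against 3), or 0.506 times the level of non-senescent cells, at an adjusted p-value of 1.5e-22 from the Wald test of the authors' fit. It alone among the promoter regions also passed a test of whether the fold change exceeds 1.5. EXO1, an exonuclease, had -0.41 ± 0.10, and RBBP8 (CtIP), which starts resection with the MRE11 nuclease, had -0.36 ± 0.07, both under the fold change limit. MRE11, RAD50 and NBN form the complex that first binds the ends. Their values were close together, at -0.18 ± 0.06, -0.16 ± 0.06 and -0.20 ± 0.06, which is near the median of all genes.

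The BRCA proteins and their partners were lower at 5 of 5 promoters at the adjusted p-value alone, and at none past the fold change limit. Of all genes, 39.9% and 7.02% were lower on these 2 readings. BRIP1, a helicase that binds BRCA1, lay just short of that limit with -0.58 ± 0.09, or 0.670 times the level of non-senescent cells, and an adjusted p-value of 1.4e-08, and passed it when the table was centred on the median of all regions. BRCA2, which acts in strand exchange, had -0.52 ± 0.09 in a region shared with ZAR1L. BARD1, the partner of BRCA1 in a ubiquitin ligase, had -0.35 ± 0.06, and PALB2, which joins BRCA1 to BRCA2, had -0.33 ± 0.08 in a region shared with DCTN5. BRCA1 had 2 promoter regions. The region over its canonical start, with a mean signal of 1317, had -0.31 ± 0.06, and the stronger region, 45244 bp upstream at an alternative start and shared with NBR1, had -0.17 ± 0.05.

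Of the 8 genes of strand exchange, 4 (50.0%) were lower and 1 (12.5%) was higher at the adjusted p-value alone. These shares lie near the 39.9% lower and 8.23% higher of all genes. XRCC2 showed different values at its 2 promoter regions. The region over its start, which holds the E2F letters given above (chr7:152675506-152676463), had a mean signal of 914.7 and -0.65 ± 0.07 at an adjusted p-value of 7.6e-18, and was called lower. The stronger region 1818 bp upstream, with a mean signal of 1660, had -0.28 ± 0.06. RAD54L and RAD54B, motor proteins that move along DNA, had -0.47 ± 0.08 and -0.33 ± 0.07, and RAD51C had -0.22 ± 0.07. XRCC3, which forms a complex with RAD51C, had 0.16 ± 0.06 (adjusted p-value 0.028) in a region shared with ZFYVE21. For RAD51B (-0.21 ± 0.11), RAD51D (-0.01 ± 0.07) and RAD51AP1 (-0.11 ± 0.08) the adjusted p-value was not under 0.05. That of RAD51B was 0.094, with a 95% interval from -0.42 to -0.0046.

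Among the helicases and partners that dissolve joined molecules, BLM had -0.38 ± 0.06 (adjusted p-value 6.9e-09) and RMI1 had -0.15 ± 0.06 in a region shared with HNRNPK, and WRN (-0.13 ± 0.07) and RMI2 (-0.03 ± 0.09) did not pass the adjusted p-value. Of the nucleases that cut such junctions, GEN1 had -0.50 ± 0.06 in a region shared with SMC6 and MUS81 had -0.37 ± 0.05 in a region shared with CFL1. EME1, the partner of MUS81, had -0.26 ± 0.10 in the region at its start and -0.95 ± 0.16 in a weaker region (mean signal 144.5) 3067 bp downstream, in an intron, which was called lower at an adjusted p-value of 1.0e-07. SLX4, a scaffold for nucleases, had -0.15 ± 0.09.

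In the Fanconi core complex, which puts ubiquitin on FANCD2 and FANCI, 5 of 7 genes (71.4%) were lower at the adjusted p-value alone. Of these, 2 were called (28.6% of the 7). Over all genes the shares were 39.9% and 7.02%. FANCL, the ubiquitin ligase itself, had -0.63 ± 0.08 in a region over its start (chr2:58240471-58241704, mean signal 764.8, adjusted p-value 1.4e-14). FANCC had calls in both directions. The region over its canonical start (chr9:95316909-95317924, mean signal 952.2), which holds the sequence printed above, had -0.74 ± 0.07, or 0.597 times the level of non-senescent cells, at an adjusted p-value of 1.2e-23. An intronic region 66687 bp downstream (chr9:95250677-95251368, mean signal 153.7) had 0.77 ± 0.16, or 1.71 times, at an adjusted p-value of 6.0e-06. Its midpoint lay 1731 bp from an alternative start inside the gene. It was the only promoter region of the 46 genes that was called higher, and it was no promoter region when windows of 1 kb or less, or canonical starts alone, were used. FANCA had -0.37 ± 0.07 at its start. A weak region of FANCA near its end (mean signal 13.7) was called lower at -1.36 ± 0.55 and an adjusted p-value of 0.035, and another weak one (mean signal 10.9) had 0.88 ± 0.58. FANCG had -0.36 ± 0.06 and FANCF -0.20 ± 0.06. FANCE (-0.06 ± 0.07) and FANCM (-0.06 ± 0.06, in a region shared with FKBP3) did not pass the adjusted p-value, although the region over the canonical start of FANCM, which is weaker, had -0.31 ± 0.11.

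FANCD2 and FANCI, the pair marked by the core complex, were both lower at the adjusted p-value alone. FANCD2 had -0.62 ± 0.10 in its only promoter region (chr3:10025943-10026943, mean signal 472.0, adjusted p-value 1.4e-09) and was called. FANCI had -0.27 ± 0.08 at its start and -0.98 ± 0.29 in a weak region (mean signal 51.0) 1159 bp downstream in an intron, which was called.

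In the checkpoint group, CHEK1, the kinase that holds back the cell cycle, had -0.43 ± 0.07 and TOPBP1, an activator of the kinase ATR, had -0.41 ± 0.09. ATR itself had -0.23 ± 0.06. ATRIP, the partner that brings ATR to single-stranded DNA, had the highest value of the 46 genes, 0.29 ± 0.08, at an adjusted p-value of 9.4e-04 and under the fold change limit. Of the proteins that mark chromatin at a break, H2AX had -0.27 ± 0.06, MDC1, which binds phosphorylated H2AX, had -0.33 ± 0.05 in a region shared with TUBB, and the ubiquitin ligase RNF168 had -0.25 ± 0.07. TP53BP1, which opposes resection, had 0.02 ± 0.06 at its start and -0.04 ± 0.04 at its strongest region, shared with MAP1A, both within the error. RNF8, the ligase that acts before RNF168, had -0.27 ± 0.08 at its start. A stronger region of RNF8 13284 bp downstream, with its midpoint 1609 bp from an alternative start, had -0.02 ± 0.06. MSH6, a mismatch repair protein, had -0.13 ± 0.07, which did not pass the adjusted p-value.

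The region of highest signal did not cover the canonical start in 6 genes. When the region over the canonical start was used in its place, which 45 of the genes had, 42 (93.3%) were negative. On that reading 34 (75.6%) were lower at the adjusted p-value alone. Called lower were 5 (11.1%), XRCC2 being added to the 4 named above. Shares of all genes on the same reading are not given here, so these counts have no background of their own. With the trend on mean signal, on GC content or both removed, 2, 3 and 1 of the 46 strongest regions were called lower. Over all 15493 genes, 974, 773 and 850 were called lower in turn. Of the 5 genes called at the canonical start, only DNA2 was called whichever trend was removed. FANCC was no longer called when both trends were removed (-0.57), FANCL when that on mean signal (-0.51) or both (-0.58) were, and FANCD2 and XRCC2 under any of the 3, at values from -0.54 to -0.48.

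Another 60 genes of DNA repair and its checkpoint were listed for comparison, and 59 had a promoter region. In their strongest region, 47 (79.7%) had a negative log2 fold change, with a median of -0.15, and 28 (47.5%) were lower at the adjusted p-value alone. The shares negative and lower lie between those of the 46 genes and those of all genes given above. Higher at the adjusted p-value alone was 1 gene (1.69%), compared with 4.35% of the 46 genes and 8.23% of all genes. A single one of these genes was called, HROB, a partner of the helicase MCM8 and MCM9, at -0.63 ± 0.08. RAD9A of the checkpoint clamp came next, at -0.56 ± 0.08. The highest were ABRAXAS1 of the BRCA1-A complex (0.20 ± 0.07, adjusted p-value 0.018), MCM9 (0.18 ± 0.08) and RPA1 (0.14 ± 0.09), and of these only ABRAXAS1 passed the adjusted p-value.

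The E2F letters given at the start were then set beside the fold changes. They were found in 8 of 40 genes (20.0%), compared with 5.09% of 12336 genes that had both a promoter region and an entry, and with 3.33% of all 27305 promoters in the table. The median log2 fold change of the strongest region was -0.41 in the 8 repair genes with the letters and -0.23 in the 32 without. In 4 genes (XRCC2, RAD51B, FANCM and RNF8) the searched start lay outside that region, so that letters and fold change come from different places, and over the other 36 the medians were -0.41 in 7 genes and -0.25 in 29. In the other repair genes the letters occurred in 7 of 51 (13.7%), with medians of -0.25 with and -0.15 without them. Over all genes the difference was smaller, with medians of -0.17 and -0.13. Of the 4 genes called lower, FANCC and FANCD2 held them, FANCL did not, and DNA2 had no entry and was not searched. Among the 12336 genes, 46 of the 628 with the letters were called lower, and 771 of the 11708 without, so that the shares were close. MSH6 held the letters and had -0.13, and BRIP1 and BRCA2 were lower without them. Of the other motifs, the CHR letters TTTGAA or TTCGAA, bound by repressor complexes in resting cells, occurred in 4 genes (10.0%, against 11.3% of the genes with a region), namely BRIP1, FANCC, H2AX and MDC1. The median was -0.45 with and -0.24 without the CHR letters, a gap no smaller than that for E2F. In the other repair genes, 9 of 51 (17.6%) held CHR letters, with medians of -0.32 and -0.15, and over all genes the medians were -0.17 and -0.13. CCAAT letters occurred in 19 genes (47.5%, against 35.8%), with a median of -0.20 against -0.28 without them, and the most in a single gene were 5, in XRCC3. The NRF1 motif occurred in SLX4 alone. Each motif was counted by itself, so a base may belong to more than 1. A match of letters is a description of the sequence, and shows neither binding nor a cause, and the comparison of medians was not tested.

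**Figure D3:**
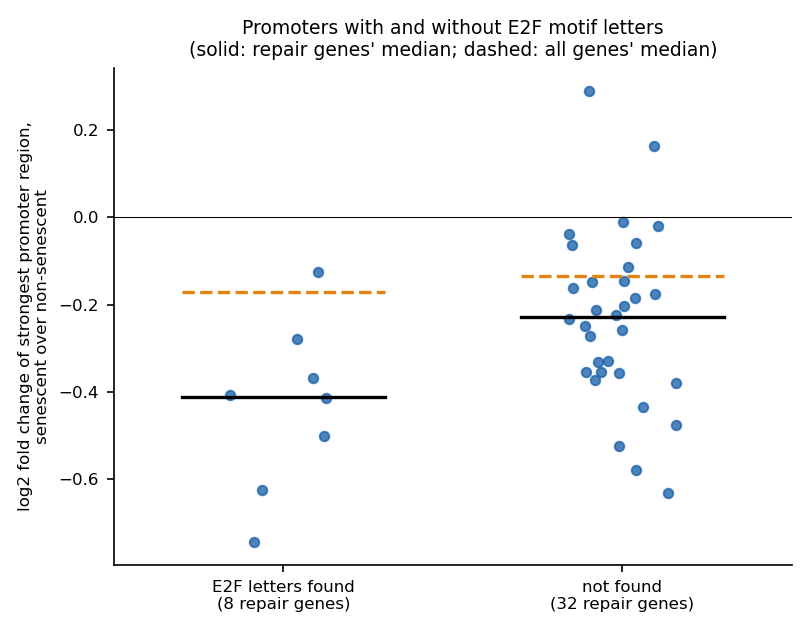
Log2 fold change of the strongest promoter region (y axis) of the 40 genes with an entry in the promoter table, 8 with E2F letters and 32 without. Points are genes, spread sideways for sight only, solid lines are their medians (-0.41 and -0.23) and dashed lines the medians of all genes with and without the letters (-0.17 and -0.13).

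The second comparison asked how the distal regions of the same genes changed. They changed in both directions. Over all signals the shares were near those of the genome, but weak and strong regions differed from it, as given below. Of the 97 regions, 13 (13.4%) were called lower and 16 (16.5%) higher, against a background of 10.9% lower and 17.4% higher over 55158 distal regions within 100 kb of a start. The median log2 fold change was 0.07, compared with 0.03 for all distal regions, and the median difference from regions of like mean signal was 0.00. The sign of the 0.07 is not firm, since it was -0.064 with the trend on GC content removed, -0.013 with both trends removed and -0.0031 in the 69 regions whose mean signal reached 50. The called regions lay at 16 genes, of which 6 had higher regions alone, 6 lower regions alone, and FANCC, RAD51B, EXO1 and RNF8 both. The regions called higher were weak, with a median mean signal of 38.6, and those called lower had 102.4. Over all distal regions these medians were 59.6 and 114.3.

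**Figure D4:**
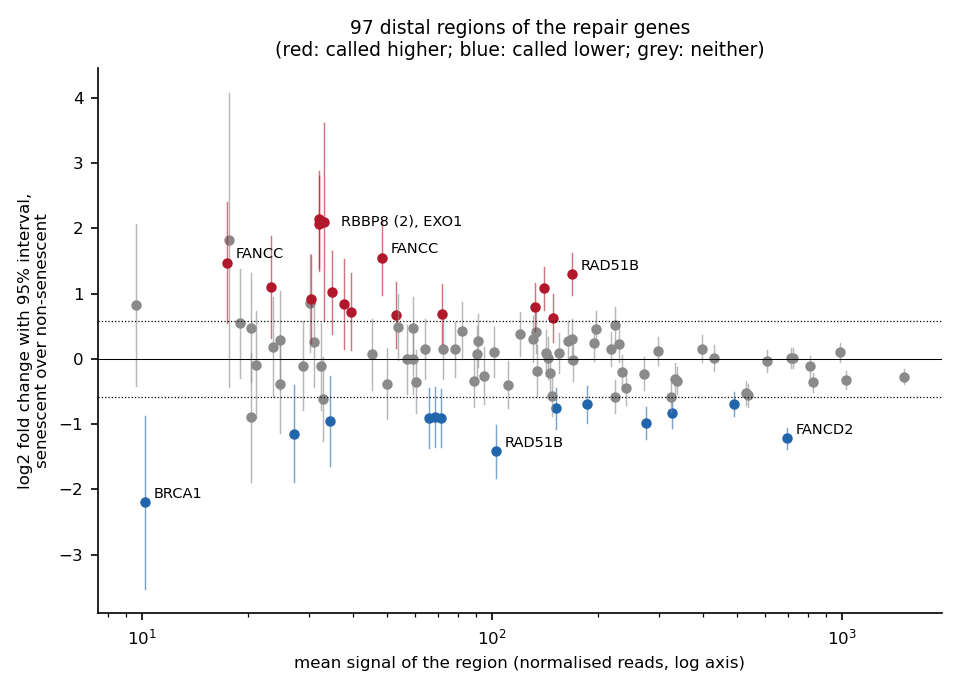
Log2 fold change with its 95% interval (y axis) against mean signal in normalised reads (x axis, log scale) of the 97 distal regions, with those called higher in red and lower in blue. The 16 red points all have a mean signal under 170, and the lower region of FANCD2 at a mean signal of 696.3 stands apart among the strong regions.

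The most certain distal change was at FANCD2. An intergenic region 7551 bp upstream of its start (chr3:10018484-10019288, hg38) had a mean signal of 696.3, higher than that of the FANCD2 promoter, and a log2 fold change of -1.22 ± 0.08, or 0.431 times the level of non-senescent cells, at an adjusted p-value of 2.4e-45. Its 95% interval from -1.38 to -1.05 did not reach that of the FANCD2 promoter from -0.81 to -0.44, and the difference itself was not tested. The middle 200 bases of the region, chr3:10018787-10018986 on the plus strand, hold no E2F letters, and capitals mark 1 ATTGG and 1 TTTGAA.
FANCD2 upstream region: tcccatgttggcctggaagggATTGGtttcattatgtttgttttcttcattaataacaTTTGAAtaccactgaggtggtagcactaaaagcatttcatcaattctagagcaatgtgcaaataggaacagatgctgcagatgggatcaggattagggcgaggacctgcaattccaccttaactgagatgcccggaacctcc

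FANCC had the most distal regions, 14, of which 3 were called higher and 2 lower. An upstream region 31846 bp before the canonical start (chr9:95349094-95350017, mean signal 275.1) had -0.98 ± 0.12 at an adjusted p-value of 6.4e-14. Another 3 regions within the introns were higher, all of them downstream of the region near the alternative start, which was higher as well. These were chr9:95229363-95229781 with 1.55 ± 0.29, chr9:95218801-95219100 with 1.47 ± 0.47 and chr9:95242715-95242902 with 0.67 ± 0.26, and their mean signals were low, at 48.4, 17.5 and 53.2. A stronger region between them, 92357 bp downstream (chr9:95225035-95225669, mean signal 234.3), had -0.20 ± 0.13 and was not called. Farther on, 141949 bp from the start, a region of mean signal 327.3 had -0.83 ± 0.12 at 1.2e-11. The strongest distal region of FANCC, with a mean signal of 1498, had -0.27 ± 0.06.

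RAD51B had 11 distal regions. Its 5 called regions all lay in introns at least 522218 bp from the canonical start and nearer to alternative starts. Those at chr14:68374410-68375188 (-1.42 ± 0.21, mean signal 102.4), chr14:68486299-68487004 (-0.91 ± 0.23) and chr14:68384396-68385510 (-0.69 ± 0.09, mean signal 489.7) were lower. Those at chr14:68392474-68393214 (1.29 ± 0.16, mean signal 169.1, adjusted p-value 9.0e-14) and chr14:68341872-68342123 (1.10 ± 0.40, mean signal 23.3) were higher. The lower region of 489.7 and the higher one of 169.1 are less than 10 kb apart.

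**Figure D5:**
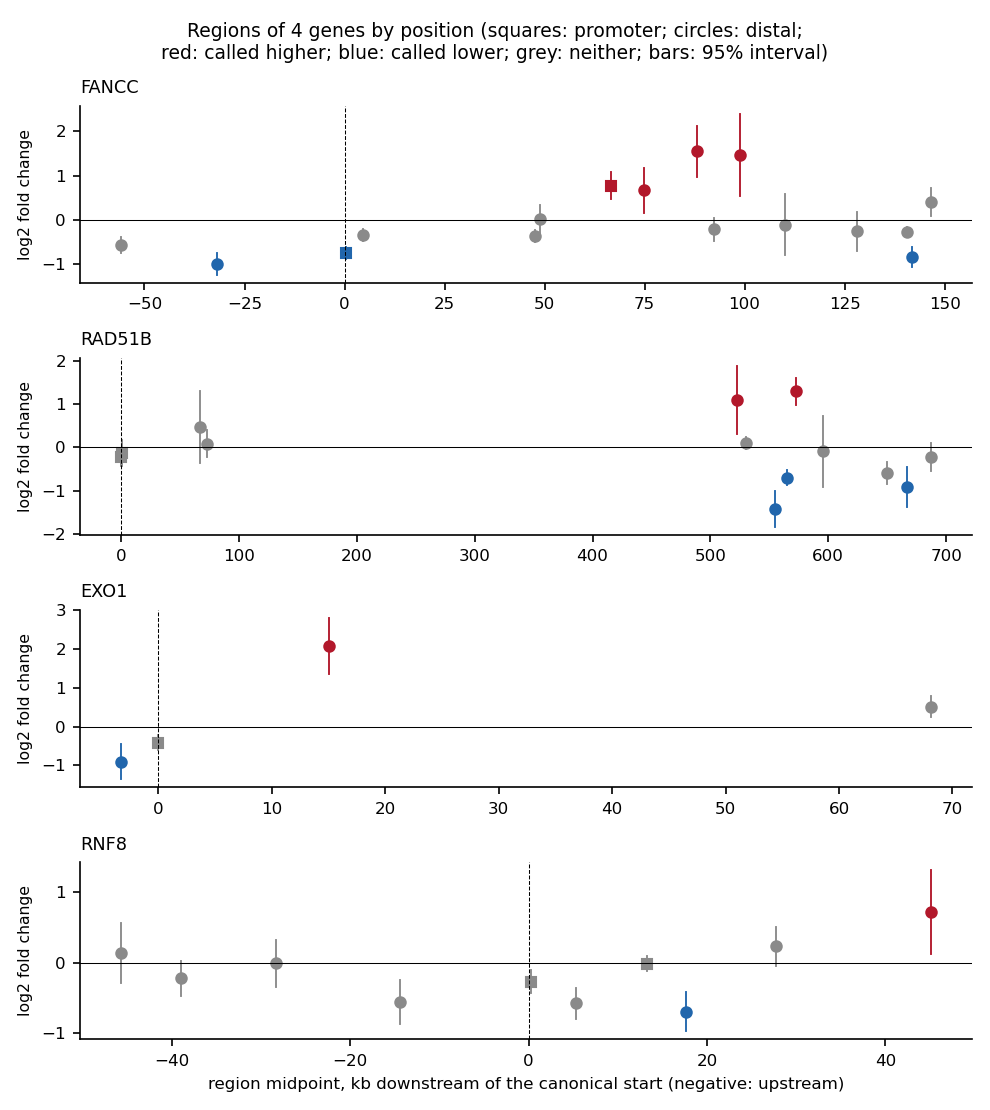
Log2 fold change with its 95% interval (y axis) of the promoter regions (squares) and distal regions (circles) of FANCC, RAD51B, EXO1 and RNF8 against the distance of the midpoint from the canonical start in kb (x axis, positive downstream). In FANCC the regions called higher (red) lie between 66 and 99 kb downstream, with a region that was not called (grey) among them, and lower regions (blue) lie at the start and farther out on both sides.

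RBBP8 had 10 distal regions, of which 4 were called higher and none lower. All 4 were intronic and weak, with mean signals between 30.4 and 35.0. The 2 highest had 2.13 ± 0.38 at chr18:23003276-23003540 and 2.09 ± 0.77 at chr18:22985387-22985567, with adjusted p-values of 2.0e-07 and 0.019, and the others had 1.02 ± 0.32 and 0.91 ± 0.35. The promoter of RBBP8 was lower, as given above. EXO1 had a region 15012 bp downstream, in an intron, with 2.07 ± 0.37 (mean signal 32.1, adjusted p-value 2.0e-07), or 4.21 times the level of non-senescent cells, and a region 3295 bp upstream with -0.90 ± 0.23. In RNF8 an intronic region 17660 bp downstream had -0.70 ± 0.14 and an intergenic one 45157 bp downstream had 0.72 ± 0.30.

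The other genes had a single called region each, and those reported here are as follows. Lower regions were found at BRCA1 (-2.20 ± 0.67, intronic), at BRCA2 (-0.89 ± 0.23, in an intron 5263 bp downstream of the start), at TOPBP1 (-0.95 ± 0.35), at FANCA (-1.14 ± 0.38) and at RAD54B (-0.76 ± 0.16, in an intron of VIRMA). That at BRCA1 had the largest fall of all and also the lowest mean signal among called regions, 10.2, and its 95% interval ran from -3.52 to -0.88. Higher regions were found at FANCL (1.08 ± 0.17, mean signal 140.3, adjusted p-value 3.5e-09), MRE11 (0.63 ± 0.19), MDC1 (0.68 ± 0.23) and RMI1 (0.84 ± 0.35). At FANCL the promoter was called lower and this region, 36871 bp downstream, higher. FANCE had 7 distal regions and none was called.

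The called distal regions differed in how firmly they stood. A test of whether the fold change exceeds 1.5 left 3 lower regions (FANCD2, RAD51B at -1.42 and FANCC at -0.98) and 4 higher ones (RBBP8 at 2.13, EXO1 at 2.07, FANCC at 1.55 and RAD51B at 1.29). With the trend on mean signal removed, 9 regions were called higher in place of 16, and with a mean signal of at least 50 there were 6 called higher and 10 lower.

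Of the regions at the limits of the rule itself, only the weak one at FANCA was called. The promoter region closest to the limit of 2 kb lay 1710 bp from a start of FANCA (-1.36 ± 0.55), and the distal region nearest to that limit lay 2022 bp from a start of FANCE (0.46 ± 0.14). The farthest distal region lay 95881 bp from a start of RAD51B (-0.22 ± 0.16). The nearest one left out, a strong region with a mean signal of 1082, lay 101024 bp from a start of XRCC2 (-0.23 ± 0.08).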

How the data were processed

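ATAC-seq marks open chromatin by the insertion of a transposase. As the study's methods describe, the authors used Trim Galore on the paired reads before alignment to hg38, dropped duplicates and mitochondrial reads, corrected read ends for the transposase offset, made a union of MACS2 peaks, counted the reads in it and compared 3 senescent with 3 non-senescent libraries in DESeq2. Versions are not given in the sources used here. The table deposited by the authors holds for each region the mean signal over the libraries, after size factors, with 0 columns of single libraries. Its log2 fold change and SE are log2 values of the authors' model, its score is the Wald statistic of the authors, and its p-value and adjusted p-value are deposited as the authors computed them. These comparison columns are the only record of the contrast and were used as they stand. The score equalled the fold change over its SE, and the adjusted p-values equalled a Benjamini-Hochberg adjustment in all 108542 regions.

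Starts were read as counted from 0 and are printed from 1. Genes, exons and canonical starts came from GENCODE 44, and promoter sequences from RefSeq. Calls needed both a fold change of more than 1.5 (0.585 on the log2 scale) and an adjusted p-value below 0.05. Regions of like mean signal were those within a running median of 1000 regions on each side. The members and gene lists were chosen with earlier results of these data known, and no test over a list was made. Named are the genes with a called region, the 5 lowest and 5 highest promoters and 17 genes fixed by name, and of the other repair genes the 3 lowest and 3 highest. The values of 2 results among these are not reported here, though they are in the counts. The calling step was tested on simulated data, and Python 3.11.15, numpy 2.4.6, pandas 2.3.3, scipy 1.17.1 and pysam 0.24.0 were used. Alternatives were a stricter p-value, no fold change limit, a test of a fold change over 1.5, a minimum mean signal of 50, centring, removal of trends, and other windows and limits.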

Additional observations from a re-analysis of the deposited data

How the results depend on the processing

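No paired analysis was possible because the deposited file pools the libraries. For the same reason another normalisation, another count test and the leaving out of single libraries could not be run, so that the weight of any 1 library is unknown, and precision is limited by 3 libraries a group and, in weak regions, by their signal.

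The counts of called regions depended on the threshold. Without the fold change limit, 40 promoter regions of the 46 genes (67.8%) were lower and 3 (5.1%) higher, against 34.7% and 10.2% of all promoter regions. At distal regions 24 (24.7%) were lower, against 19.7% of all distal regions, and 19.6% were higher, against 23.05%. With a test of a fold change over 1.5, 1 promoter region was lower and 0 higher, with 3 distal regions lower and 4 higher. In the strongest region of each gene that test left 1 of 46 genes lower, against 170 of 15493. With an adjusted p-value under 0.01, 9 distal regions were higher. With a mean signal of at least 50 there were 6 (8.70%), against 14.8% of all distal regions of that signal. Promoter regions called lower were 5 with either trend removed (mean signal or GC content) and 4 with both removed, and distal regions called higher were 9 without the trend on mean signal, alone or with that on GC content. Without the trend on GC content, 20 distal regions were lower. Windows of 1 kb or 0.5 kb, or canonical starts only, left 0 promoter regions called higher. The other repair genes had 33 promoter regions (45.8%) lower and 1 (1.39%) higher without the fold change limit. They had 0 lower with the test of a fold change over 1.5, and 1 lower with any trend removed or with a window of 0.5 kb.

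The median promoter log2 fold change of -0.26 moved to -0.15, -0.17 and -0.10 with the trend on mean signal, on GC content or both removed, and canonical starts only, which was added after seeing the data, gave -0.27. The distal median of 0.07 turned to -0.064 without the trend on GC content, to -0.013 without both and to -0.0031 at a mean signal of at least 50. Single promoters with small negative values turned positive without the trend on mean signal, namely RAD51AP1 (0.020), FANCM (0.065), TP53BP1 (0.054), RMI2 (0.095), RAD51D (0.103), FANCE (0.054) and RNF8 (0.103). Without the trend on GC content FANCM (0.054), TP53BP1 (0.089), SLX4 (0.029), RMI2 (0.141), RAD51D (0.146), MSH6 (0.024) and RMI1 (0.013) did so. Without both, RAD51AP1 (0.0088), FANCM (0.131), TP53BP1 (0.124), SLX4 (0.084), RMI2 (0.197), RAD51D (0.188), MSH6 (0.075), RAD50 (0.018), FANCE (0.058), RNF8 (0.028), NBN (7.5e-04) and RMI1 (0.040) did. None of these 26 values had been called. The cause was not tested.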
